A study of Homo sapiens with 29 samples.

Results

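The regions described here are sites of open chromatin in 22Rv1 cells, a human prostate cancer line, that had no called peak after 3 h with the covalent stereoprobe WX-02-23 but kept one after its stereoisomer WX-02-43. They were chosen by the presence or absence of peaks in parental cells alone. Peaks of all 29 ATAC-seq lists (every chromosome but the mitochondrial one) were merged where they overlapped or touched, which gave 166696 regions. A region was taken when all 3 DMSO and all 3 WX-02-43 libraries of parental cells had a peak in it and none of the 3 WX-02-23 libraries did. This rule found 624 regions, 0.977% of the 63846 regions held by all 6 DMSO and WX-02-43 libraries. "Held" means here that a peak of the library overlapped the region by at least 1 bp. The absence under WX-02-23 and the presence under WX-02-43 were the rule itself, so they carry no test, and the count depended on how many WX-02-23 libraries had to be empty. It was 1029 when WX-02-23 replicate 1 was left out and the rule asked the other two libraries alone.

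ATAC-seq marks open chromatin by letting a transposase cut accessible DNA and sequencing the fragments. FOXA1 is a forkhead pioneer transcription factor. It can bind its sites in closed nucleosomal DNA and open them for other factors, in prostate luminal cells above all for the androgen receptor. C258 is the FOXA1 cysteine that WX-02-23 engages, and C258A-FOXA1 has an alanine there. Pladienolide B (PladB) binds the SF3B1 splicing complex, to which PHF5A belongs, and Y36C-PHF5A is a form of that subunit that blunts the action of such splicing ligands. WX-02-43 has the same atoms and bonds as WX-02-23 in another spatial arrangement.

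Parental 22Rv1 cells gave 3 libraries each with DMSO (0.1%), WX-02-23 (20 µM), WX-02-43 (20 µM), PladB at 10 nM and PladB at 100 nM. Engineered 22Rv1 cells overexpressed Y36C-PHF5A and carried either WT-FOXA1 or C258A-FOXA1 under doxycycline (Dox) control. Both engineered lines had 2 libraries each with Dox and DMSO, Dox and WX-02-23 (20 µM), and Dox and PladB (100 nM). The WT-FOXA1 line also had 2 libraries with DMSO and no Dox. Each compound or vehicle was given for 3 h. There was no engineered library with WX-02-43, no C258A library without Dox and no engineered line without Y36C-PHF5A. The labels name 1 engineered genotype for each construct, and the amounts of endogenous and induced FOXA1 were not analysed here. The labels do not say whether replicates were separate cultures, so the p-values below measure the spread between these libraries, which may be technical.

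Parental lists held 82538 to 98193 peaks and engineered lists 62832 to 92658. The caller's background, a relative measure of depth, was 0.546 to 1.502 reads per base, and the weakest summit called at that background had 5 to 8 reads. A region without a peak may still have been open below this limit. The peak names place parental and engineered lists in 2 processing folders, so line and processing batch cannot be told apart. No test compared treatments across that boundary, and parental values printed beside engineered ones are a description. Coordinates are of build hg19. Genes, sequence motifs and marker loci at the regions were not analysed here, for want of a genome and annotation in that build.

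The 624 regions were weak to moderate sites before any question of treatment. The authors' fold enrichment over background, averaged for each region over the 3 DMSO lists, had a median of 6.21 (2.54 to 14.3). The median was 9.16 for the 59842 regions that all 9 DMSO, WX-02-43 and WX-02-23 libraries held. The summit pileup, recovered from the fold and p-value of each peak, had a median of 13.7 reads in the DMSO lists, against 29.7 for those 59842 regions. Ranked by p-value within its own list, the median region stood at percentile 29.9, where 100 is the strongest peak. In single libraries, the median percentile of the 624 regions was 28.4, 33.2 and 31.4 in DMSO replicates 1, 2 and 3. It was 32.2, 35.6 and 23.5 in WX-02-43 replicates 1, 2 and 3. WX-02-43 replicate 3 had both the lowest of these values and the highest background of all 29 libraries. Strength enters the rule through the peak calls, so these values are a description.

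The edge of the rule was close by in strength. A further 979 regions were held by all DMSO and WX-02-43 libraries and by 1 of 3 WX-02-23 libraries, and their median DMSO fold was 6.21 too. Their single WX-02-23 peak had a median summit of 11 reads (6 to 52), a median fold of 5.20 and a median percentile of 15.1 in its list. With 2 of 3 WX-02-23 libraries there were 2401 regions, whose median DMSO fold was 6.38. On the other side, 358 regions met the rule but for 1 missing DMSO peak, and 430 but for 1 missing WX-02-43 peak. Of the 1430 regions that all DMSO and no WX-02-23 libraries held, 122 had no WX-02-43 peak, 254 had one in 1 of 3 libraries, and 624 had one in all 3.

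The reverse pattern served as a reference set. There were 83 regions, called mirror regions from here on, that all DMSO and all WX-02-23 libraries held and no WX-02-43 library did. They made up 0.131% of the 63228 regions held by all DMSO and WX-02-23 libraries. Mirror regions were weaker, with a median DMSO fold of 5.57, a median of 11.7 summit reads and a median percentile of 21.4. Because of this gap in strength, both counts were also read within bins of DMSO percentile. Between percentiles 20 and 30, 186 of 4221 regions (4.41%) belonged to the 624, and 29 of 4177 (0.694%) were mirror regions. Between 40 and 50 the numbers were 102 of 7471 (1.37%) and 4 of 7176 (0.0557%). Above percentile 80 neither set had a region. In every bin below percentile 80 the 624 regions had the higher share.

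**Figure D1:**
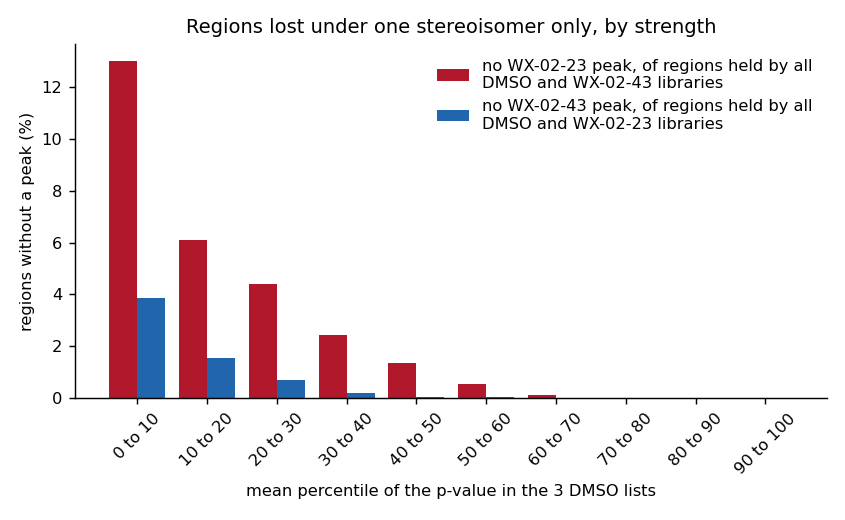
Share of regions without a peak under one stereoisomer (vertical axis, %) by the percentile of the p-value, averaged over the 3 DMSO lists (horizontal axis, bins of 10). Red bars are regions lost under WX-02-23 among those held by all DMSO and WX-02-43 libraries, and blue bars are regions lost under WX-02-43 among those held by all DMSO and WX-02-23 libraries. Red bars fall from 13% in the lowest bin to 0.0225% between 70 and 80, blue bars from 3.86% to 0 above 60.

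The regions were narrower than stable sites. Their merged width had a median of 410.5 bp (211 to 1223), against 615 bp for all 63846 regions held by the DMSO and WX-02-43 libraries and 349 bp for mirror regions. The single DMSO peaks in them had a median width of 267 bp, with the caller's minimum at 150 bp. The 979 and 2401 regions at the edge of the rule had median merged widths of 399 and 402 bp, close to that of the 624. The summits of the 6 DMSO and WX-02-43 peaks spread over a median of 116.5 bp within a region, against 77 bp for all 63846. The widest region, chr11:62656740-62657962, spanned 1223 bp although its DMSO peaks had 14, 17 and 15 summit reads, and the narrowest, chr20:44717221-44717431, spanned 211 bp.

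In position they resembled other regions of the same DMSO and WX-02-43 pattern. The gap to the nearest other region had a median of 3775.5 bp, against 4621 bp for all 63846. The nearest region held by all 3 DMSO libraries lay at a median of 10232 bp, against 9818 bp, and a median of 3 such regions lay within 50 kb of the centre in both sets. A region with any WX-02-23 peak lay within 1 kb of 95 of the 624 (15.2%), against 18.9% of the 63846. Regions open in all 29 libraries were somewhat farther away, at a median of 26354 bp against 19486 bp. The 624 regions were scattered: the nearest other one lay at a median of 1550370 bp, and 10 had another within 10 kb. The 3 most isolated were chrY:7317876-7318316, chr4:182878233-182878621 and chr10:51767462-51768261, with 70322, 65593 and 59072 bp to any other region.

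All chromosomes had at least 1 of the regions. Their share of the regions held by all DMSO and WX-02-43 libraries was lowest on chromosome 22 (4 of 1253, 0.319%) and chromosome 19 (14 of 2730, 0.513%). It was highest on chromosome X (21 of 1566, 1.34%) and chromosome 2 (53 of 4194, 1.26%).

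PladB libraries of parental cells still held most of the regions at the low dose. The rule did not ask whether they had a peak, although their peaks were merged into the regions. At 10 nM, 82.2%, 76.9% and 71.8% of the 624 regions had a peak in replicates 1, 2 and 3 (mean 77.0% ± 5.2, SD, n = 3). At 100 nM the shares were 53.2%, 63.8% and 54.8% (57.3% ± 5.7, SD, n = 3). Every 100 nM library lay below every 10 nM library. The difference was -19.7 percentage points (exact two-sided permutation p = 0.1, a value that 3 against 3 libraries cannot go below). The 100 nM libraries were also shallow, with a background of 0.662 to 0.734 reads per base against 0.843 to 1.016 at 10 nM, and its part in the difference was not tested. With all lists brought to 1 length the difference was -12.95 points. At that setting the rule was applied anew and found 687 regions, whose overlap with the 624 was not counted. All values at 1 list length below are of those 687 regions. Mirror regions had mean shares of 63.1% at 10 nM and 47.0% at 100 nM. The 2401 regions with 2 WX-02-23 peaks had 87.2% and 72.5%. The 979 regions with 1 of 3 WX-02-23 peaks were of like strength to the 624. Their shares were 80.0% ± 6.9 and 62.0% ± 3.7 (SD, n = 3). At both doses the range of their libraries overlapped that of the 624.

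Counted by region, 350 of the 624 (56.1%) had a peak in all 3 libraries at 10 nM, where 94.5% of the 63846 regions did. At 100 nM the count was 199 (31.9%), against 89.2%. No library at 10 nM had a peak in 39 regions (6.25%), against 0.241%, and none at 100 nM in 120 (19.2%), against 1.13%. The weakness of the sites stands beside these shares: in the weakest 208 of the 624, ranked by percentile over the DMSO and WX-02-43 lists, the mean share with a peak at 100 nM was 40.4% ± 6.0 (SD, n = 3), and in the strongest 208 it was 76.9% ± 5.8 (SD, n = 3). The count of 120 became 181 without DMSO replicate 1, 184 without WX-02-43 replicate 3 and 182 without PladB 100 nM replicate 2. All 6 PladB libraries held 167 regions (26.8%), against 87.4%, and none of them held 24 (3.85%), against 0.119%.

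In the engineered lines, WX-02-23 libraries had the fewest of these regions. The rule did not ask whether these lines had a peak either, although their peaks were merged into the regions. With Dox, WT-FOXA1 DMSO libraries held 54.5% and 49.8% of the 624 regions (52.2% ± 3.3, SD, n = 2) and WX-02-23 libraries 8.01% and 6.25% (7.13% ± 1.25, SD, n = 2). The difference was -45.0 points. With Dox, C258A-FOXA1 DMSO libraries held 47.9% and 51.6% (49.8% ± 2.6, SD, n = 2) and WX-02-23 libraries 24.04% and 34.3% (29.2% ± 7.3, SD, n = 2). The difference was -20.6 points. Each difference exceeded the spread between replicates in its line, and each reached p = 0.333 in an exact two-sided permutation test, the least possible for 2 against 2 libraries.

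Both lines together allowed a test. WX-02-23 libraries were set against the DMSO and PladB libraries of the same line, and the labels were permuted within lines. This layout was taken because no other layout of these libraries could pass 0.05. It counts PladB together with DMSO, so its p-value is not one for WX-02-23 against DMSO alone. The mean difference was -29.6 points, and p was 0.00444 (exact two-sided permutation test), the least possible for 225 arrangements. All 4 WX-02-23 libraries lay below all 8 others. This difference held when any 1 library was left out, with a highest exact permutation p of 0.0133. At 1 list length, among the 687 regions of that setting, it was -29.1 points.

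**Figure D2:**
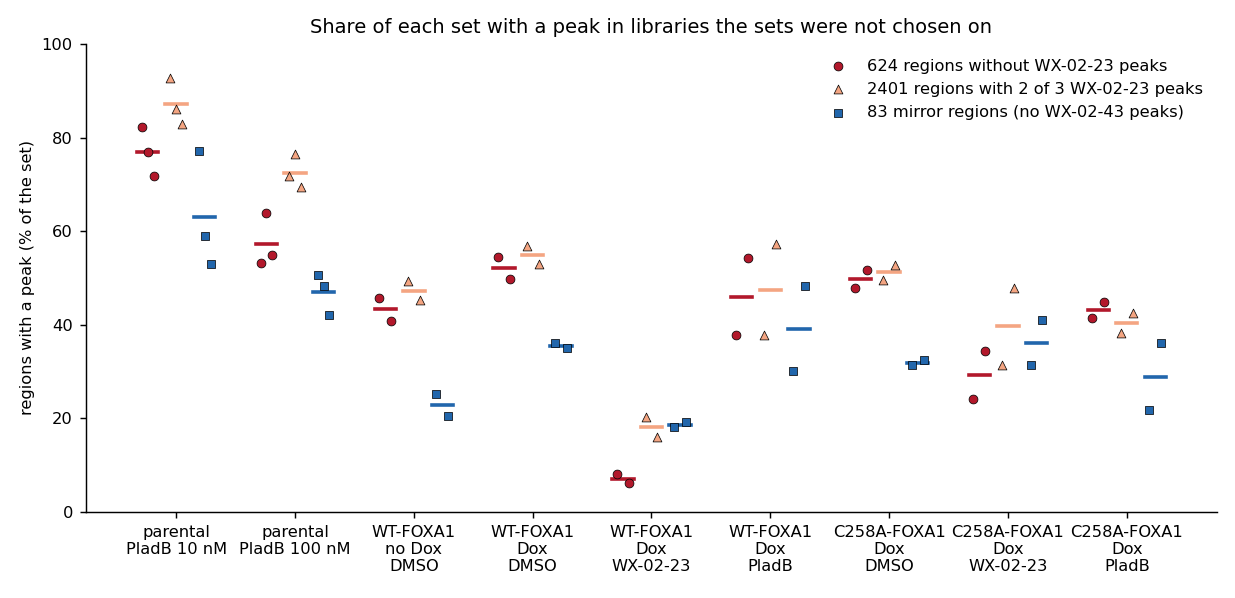
Share of 3 sets of regions with a peak (vertical axis, %) in each library of the 9 groups that did not choose the sets. Points are libraries and bars are group means. For the 624 regions (red circles) the means run from 77.0% with PladB 10 nM to 7.13% in the WT-FOXA1 line with WX-02-23, while mirror regions (blue squares) stand at 18.7% there and the 2401 regions with 2 of 3 WX-02-23 peaks (orange triangles) at 18.2%.

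The loss of these regions was larger than that of reference sets read in the same libraries, which shared list length and depth. Mirror regions had mean shares of 35.5% with DMSO and 18.7% with WX-02-23 in the WT-FOXA1 line, and of 31.9% and 36.1% in the C258A-FOXA1 line. In the 4 WX-02-23 libraries the share of the 624 regions was below that of mirror regions. In the other 8 Dox libraries it was above. The share of the 624 minus the share of mirror regions fell by 23.1 points with WX-02-23 (exact two-sided permutation p = 0.00444). The 83 mirror regions are few, and they include no region that WX-02-23 closed in parental cells, so 3 more references were added after seeing the data. Against 615 regions held by all DMSO and WX-02-23 libraries and at most 1 WX-02-43 library, the difference was -22.5 points. Against the 2401 regions with 2 of 3 WX-02-23 peaks, of like strength, it was -10.0 points. Against the 979 regions with 1 of 3 it was -7.56 points. Each of these had the same exact permutation p of 0.00444.

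By region, the WT-FOXA1 line repeated the loss at most sites that it had open. Both Dox DMSO libraries of that line held 267 of the 624 regions. WX-02-23 left no peak in 206 of the 267 (77.2%), where 16.5% of all 68830 regions held by both DMSO libraries were lost in this way. Both WX-02-23 libraries held 19 (7.12%), against 68.6%. In the C258A-FOXA1 line, both Dox DMSO libraries held 247 regions, of which neither WX-02-23 library held 65 (26.3%), against 3.85%. Both WX-02-23 libraries held 112 (45.3%), against 84.6%. The shares over all regions include stronger sites, and sets of like strength lost peaks with WX-02-23 too. In the WT-FOXA1 line, the mean share of the 979 regions with 1 of 3 WX-02-23 peaks went from 47.9% with Dox and DMSO to 11.4%. That of the 2401 with 2 of 3 went from 54.9% to 18.2%. In the C258A-FOXA1 line these shares went from 44.4% to 30.7% and from 51.2% to 39.7%. The count of 65 was the least stable: it was 113 without C258A DMSO replicate 1, 101 without DMSO replicate 2 and 118 without WX-02-23 replicate 2, since each of these asks 1 library fewer.

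**Figure D3:**
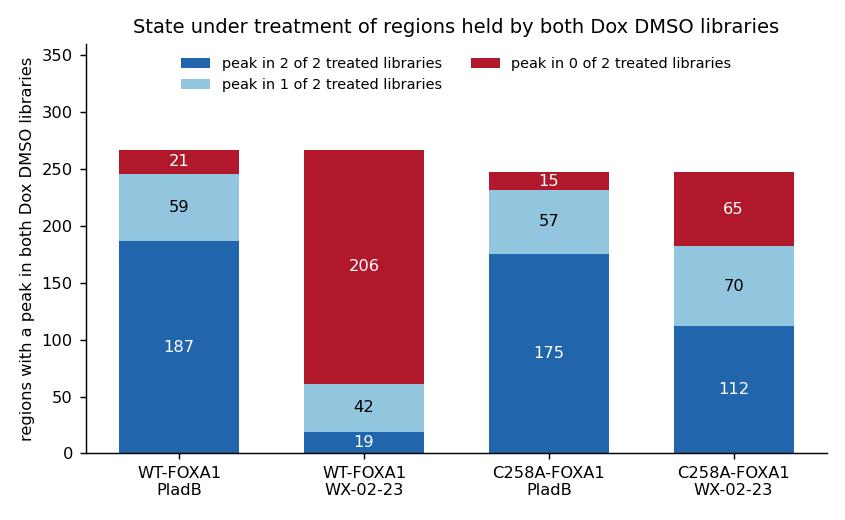
Regions of the 624 with a peak in both Dox DMSO libraries of a line (vertical axis, number of regions), split by how many of the 2 treated libraries had a peak. Under WX-02-23, 206 of 267 regions had none in the WT-FOXA1 line and 65 of 247 in the C258A-FOXA1 line, and under PladB 21 and 15.

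The loss was larger in the WT-FOXA1 line than in the C258A-FOXA1 line, by a difference that did not pass the exact test, which cannot reach the usual level here. The WX-02-23 difference in the WT-FOXA1 line minus that in the C258A-FOXA1 line was -24.4 points. Permuting line labels within treatment gave an exact two-sided p of 0.111, where the smallest possible with 36 arrangements is 0.0556. With all lists at 1 length the difference was -17.2 points, with p at that smallest value. The WT-FOXA1 WX-02-23 lists were among the 3 shortest, with 67815 and 62832 peaks, while the C258A-FOXA1 WX-02-23 lists held 76645 and 92658. The lists of the WT-FOXA1 line without Dox were of like length, with 69814 and 67195 peaks, and had 45.7% and 40.9% of the 624 regions. Their backgrounds were 0.809 and 0.723 reads per base, against 0.903 and 1.256 with Dox and WX-02-23. The part of list length and depth in these shares was not tested.

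**Figure D4:**
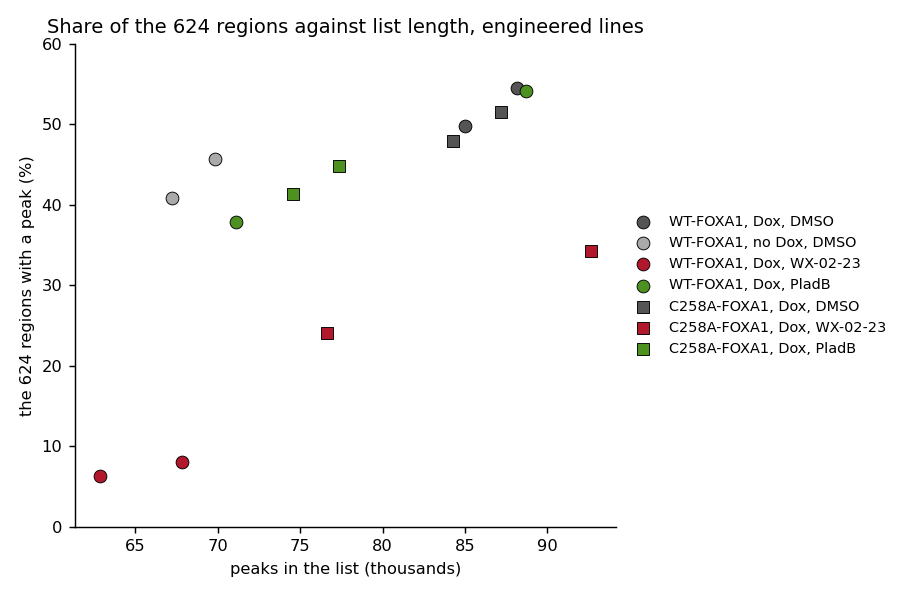
Share of the 624 regions with a peak (vertical axis, %) against the number of peaks in the list (horizontal axis, in units of 1000) for the 14 engineered libraries. Circles are the WT-FOXA1 line and squares the C258A-FOXA1 line. The 4 WX-02-23 libraries (red) lie between 6.25% and 34.3%, and the others between 37.8% and 54.5%, at overlapping list lengths.

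The 184 regions held by all 4 Dox DMSO libraries could be followed in both lines at once. Of these, 60 (32.6%) had no WX-02-23 peak in the WT-FOXA1 line and both in the C258A-FOXA1 line, where 5.91% of all 58800 regions held by the 4 DMSO libraries did. The opposite pattern, lost in the C258A-FOXA1 line and held in 2 of 2 WX-02-23 libraries in the WT-FOXA1 line, was found at 0 of 184. It was found at 0.177% of the 58800, a share too low for 184 regions to tell from none. No WX-02-23 library of either line held 32 regions (17.4%), against 1.17%. All 4 held 16 (8.70%), against 74.3%. The 58800 include stronger sites, and these patterns were not counted in sets of like strength. The WX-02-23 lists were also shorter in the WT-FOXA1 line (67815 and 62832 peaks) than in the C258A-FOXA1 line (76645 and 92658). The part of strength and list length in these counts was not tested.

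Among the 60, the highest by rank in parental lists was chr17:31158507-31159127. Its authors' folds were 7.31, 8.52 and 8.15 in parental DMSO and 7.57, 8.57 and 7.59 in WX-02-43. It had 8.18 and 8.21 in WT-FOXA1 Dox DMSO and no peak in WX-02-23 of that line. In the C258A-FOXA1 line it had 7.57 and 8.42 with Dox and DMSO and 5.71 and 6.85 with WX-02-23. Its percentiles within those C258A-FOXA1 lists were 53.1 and 63.9 with DMSO and 27.7 and 47.4 with WX-02-23. All 6 parental PladB libraries held it. At chr3:102312617-102313116, folds of 11.3 and 11.4 stood in WT-FOXA1 Dox DMSO and 6.02 and 9.11 in C258A-FOXA1 WX-02-23. The next by rank were chr11:39589263-39589919, chr14:90121247-90121804 and chr3:131937591-131938290. The WT-FOXA1 line without Dox held each of these 5 regions in both libraries. These folds are the authors' values for single peaks and do not rank libraries against each other.

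Of the 32 regions that no engineered WX-02-23 library held, the 5 highest by rank were chr2:219160927-219161336, chr14:84295287-84296017, chr4:118124273-118124817, chr9:31004067-31004565 and chr5:161296345-161296870. The region on chromosome 2 lay 58 bp from its nearest neighbour and had 26 and 22 summit reads in WT-FOXA1 Dox DMSO and 19 and 24 in C258A-FOXA1 Dox DMSO. The others had 7 to 18 summit reads in those 4 libraries, where the weakest called summit had 6. Both no-Dox libraries held all 5.

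Without Dox, the WT-FOXA1 line already held many of the regions. DMSO libraries without Dox had 45.7% and 40.9% of the 624 (43.3% ± 3.4, SD, n = 2), against 54.5% and 49.8% with Dox. The difference of 8.89 points gave p = 0.333 in the exact two-sided permutation test, the least possible. The Dox DMSO lists were longer, with 88140 and 85009 peaks against 69814 and 67195 without Dox, and with all lists brought to 1 length the difference turned to -6.40 points. Of the 267 regions held by both Dox DMSO libraries, 58 (21.7%) had no peak without Dox, close to the 18.8% of all such regions. Of the 200 regions held by both no-Dox libraries, 14 (7%) had no peak with Dox and DMSO, against 1.98%. Of the same 200, 160 (80%) had no peak with Dox and WX-02-23, against 12.6%. The 200 and the 267 regions shared 152. WX-02-23 without Dox was not part of the design.

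With PladB the engineered lines held about as many of the regions as a DMSO library or somewhat fewer. In the WT-FOXA1 line the PladB libraries held 37.8% and 54.2% (46.0% ± 11.6, SD, n = 2), on both sides of one DMSO library, and the difference from DMSO was -6.17 points (exact two-sided permutation p = 0.667). It was 2.00 points without PladB replicate 1, whose list was short at 71121 peaks. In the C258A-FOXA1 line PladB libraries held 41.3% and 44.9% (43.1% ± 2.5, SD, n = 2), a difference of -6.65 points (p = 0.333 by the same exact test, the smallest possible). With lists of 1 length the differences were -0.728 and -0.509 points. Of the regions held by both DMSO libraries, 21 of 267 (7.87%) had no PladB peak in the WT-FOXA1 line, against 4.45%, and 15 of 247 (6.07%) in the C258A-FOXA1 line, against 6.6%.

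Stronger regions were held more often in vehicle libraries but not in WT-FOXA1 cells with WX-02-23. The weakest 208 and the strongest 208 of the regions had mean shares of 40.1% and 64.4% in WT-FOXA1 Dox DMSO. The shares were 31.5% and 58.9% without Dox and 38.2% and 63.7% in C258A-FOXA1 Dox DMSO. In C258A-FOXA1 WX-02-23 they were 22.8% ± 5.1 and 33.9% ± 9.2 (SD, n = 2 each), and both libraries had a higher share in the strongest 208 (27.4% and 40.4%) than either had in the weakest (19.2% and 26.4%). In WT-FOXA1 WX-02-23 they were 7.21% ± 2.04, 7.93% ± 1.02 and 6.25% ± 0.68 (SD, n = 2 each) in the weakest, middle and strongest 208. The ranking used lists that the rule used, and the rule kept a strong region only if it had no parental WX-02-23 peak. Strength and the choice of regions are therefore not independent. These trends were described and not tested.

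**Figure D5:**
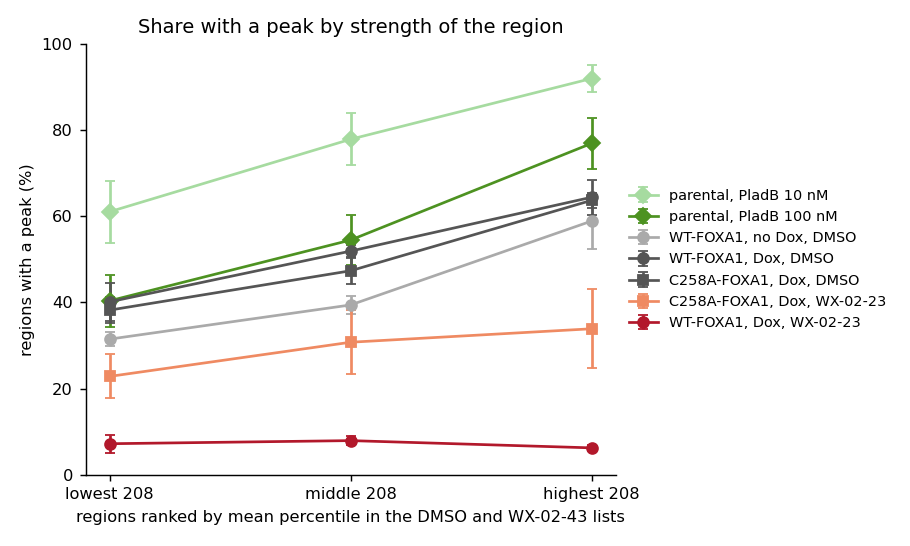
Mean share of regions with a peak (vertical axis, %) in the weakest, middle and strongest 208 of the 624 regions, ranked by mean percentile in the DMSO and WX-02-43 lists. Error bars are the SD over 3 (parental) or 2 (engineered) libraries. The mean is higher for stronger regions in every plotted group except WT-FOXA1 with WX-02-23, which lies between 6.25% and 7.93%.

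Wide regions were held more often than narrow ones in all engineered groups, vehicle and PladB included. From the narrowest 208 to the widest 208, the mean share went from 38.9% to 62.5% in WT-FOXA1 Dox DMSO, from 35.6% to 63.2% in C258A-FOXA1 Dox DMSO, from 34.9% to 53.1% without Dox and from 33.9% to 57.5% in WT-FOXA1 PladB. Among the widest 208 (482 to 1223 bp) WT-FOXA1 WX-02-23 libraries held 12.98% ± 2.72 (SD, n = 2), against 4.33% ± 0.68 among the narrowest 208 (211 to 367 bp). The C258A-FOXA1 WX-02-23 libraries held 41.8% ± 5.4 and 20.2% ± 8.2. A merged width is not independent of these libraries, because each of their peaks could extend the region. The 19 regions that WT-FOXA1 WX-02-23 kept in both libraries had a median width of 569 bp and a median percentile of 27.2, against 440 bp and 33.8 for the 206 that it lost.

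Where WX-02-23 libraries did hold one of the 624 regions, a smaller share of the summits lay close to the parental one. Outside WX-02-23, 85.3% to 90.8% of the peaks found at the 624 regions in a library had their summit within 100 bp of the parental summit. In WX-02-23 libraries the share was 80.0% and 71.8% in the WT-FOXA1 line, from 50 and 39 peaks, and 81.3% and 82.7% in the C258A-FOXA1 line, from 150 and 214 peaks. All 4 lay below all engineered PladB, DMSO and no-Dox libraries, and below the parental PladB libraries of the other processing folder. The median distance did not separate them: it was 31 and 53 bp in the WT-FOXA1 line and 47.25 and 42 bp in the C258A-FOXA1 line, against 30.5 to 41.25 bp elsewhere. This was not tested or read in other sets of regions, and with so few peaks the WT-FOXA1 values are coarse. The WX-02-23 peaks also ranked low, at median percentiles of 21.3 and 18.8 in the WT-FOXA1 line and 24.9 and 26.8 in the C258A-FOXA1 line. With Dox and DMSO these were 34.8 and 33.1, and 34.5 and 34.7. In parental PladB 100 nM libraries, of the other processing folder, they were 20.6, 22.0 and 21.2. The part of peak strength in summit placement was not tested.

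A part of the regions was seen in parental cells alone. No engineered library of the 14 held 126 of the 624 (20.2%), against 3.64% of the 63846. All 14 held 10 (1.60%), against 57.3%. The 63846 include stronger sites, and the 14 libraries include the 4 with WX-02-23. Sets of like strength were not counted in this way. In WT-FOXA1 Dox DMSO the mean share was 52.2% for the 624, 47.9% for the 979 regions with 1 of 3 WX-02-23 peaks and 54.9% for the 2401 with 2 of 3. In C258A-FOXA1 Dox DMSO these shares were 49.8%, 44.4% and 51.2%. Among the 6 regions highest by rank, both extremes occurred, a peak in no engineered library and a peak in all 14. The region at chr12:15574233-15574595 had summits of 19, 25 and 21 reads in parental DMSO and of 21 to 30 in the 6 PladB libraries, with no peak in any engineered library. The highest by rank, chr10:27292287-27292842, had DMSO folds of 11.8, 17.3 and 13.8 and WX-02-43 folds of 14.8, 14.3 and 10.8. All 6 PladB libraries and all 14 engineered libraries held it, the 4 with WX-02-23 included. Folds with WX-02-23 were 5.85 and 6.20 in the WT-FOXA1 line and 8.59 and 12.1 in the C258A-FOXA1 line. With Dox and DMSO they were 14.4 and 16.3 in the WT-FOXA1 line and 15.2 and 13.4 in the C258A-FOXA1 line. Between them stood chr4:115514859-115515510 and chr6:78363351-78364128, which had no WX-02-23 peak in the WT-FOXA1 line and a peak in 1 of 2 libraries in the C258A-FOXA1 line.

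The 24 regions that lacked PladB peaks in parental cells were of several kinds. By rank the first was chr6:74223667-74224629, with DMSO summits of 22, 29 and 21 reads. It was held by both no-Dox and all 4 Dox DMSO libraries and by no WX-02-23 library of any line. The second, chr17:79475723-79476641, had DMSO folds of 4.17, 3.87 and 3.01 and was held by both C258A-FOXA1 WX-02-23 libraries. The third, chr1:120255258-120255568, was held by all 14 engineered libraries. It was 311 bp wide and lay 69 bp from its nearest neighbour.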

How the data were processed

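Per the labels' protocols, a commercial kit was used for ATAC-seq. Per the submitters' processing notes, Bowtie2 and MACS2 were used with build hg19. Their versions and options, and whether duplicates were removed or reads shifted for the transposase cut, are not given here. The authors deposited 1 narrowPeak list per library, so peaks were called per library. Per peak, the authors deposited a score, the −log10 of the p-value and of the q-value, the ratio of signal to local background (fold enrichment) and the summit offset. The lowest −log10 q of a list was 2.00053 to 2.15395, and the narrowest peak spanned 150 bp. These values served inside their own list or as description. Tests between libraries compared only the presence of a peak.

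The members, the reference sets and the tests were chosen with earlier results of these data known. Groups and replicate numbers came from the labels. Peaks outside the 35 on the mitochondrial chromosome were merged over all 29 lists where they overlapped or touched. An overlap of at least 1 bp counted as a peak in the region. Read totals were not given. The summit pileup and the caller's background were recovered from fold and p-value by the MACS2 formulas (tolerance 0.01 in −log10 p), which solved every peak in the 624 regions. The background depends on how far reads were extended and is only a relative depth. Shares of regions with a peak were computed per library and compared by exact two-sided permutation tests over libraries, within lines where lines were combined. Shared control libraries enter several of the comparisons.

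Regions named by position followed a rule. They were the 6 highest by mean percentile of the authors' p-value over the 3 DMSO and 3 WX-02-43 lists, the 3 widest, the 3 narrowest and the 3 farthest from any other region. Added to these were, by the same percentile, the 5 highest each of 2 patterns among regions held by all 4 Dox DMSO libraries (lost with WX-02-23 in the WT-FOXA1 line and held in the C258A-FOXA1 line, or lost in both), and the 3 highest each held by all or none of the 6 parental PladB libraries. Where fewer are printed, the first of a part are given.

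Alternatives were a stricter q-value (1e-05), all lists cut by p-value to the length of the shortest (62832 peaks), peaks covering at least 50% of the region, 100 bp windows around summits, regions from the 15 parental lists, a replicate block, and each library left out in turn. The 3 further reference sets were added after seeing the data. The rule was tested on simulated lists, and merging was checked against bedtools 2.31.1. Computations ran in Python 3.11.15 (scipy 1.17.1, pandas 2.3.3, numpy 2.4.6, matplotlib 3.10.9). The planned sequence features were left out, as no hg19 genome was used and coordinates were not converted.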

Additional observations from a re-analysis of the deposited data

How the results depend on the processing

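Of 262 values recomputed under the alternatives, 253 kept their direction, their side of the test's threshold or, for counts, stayed within 1.5 times. Only the joint difference and that relative to mirror regions could change their side of the threshold of 0.05. The other differences cannot reach it with these libraries, so for them only a change of direction could be seen. The 2 that reversed were the Dox difference, -6.40 points with lists of equal length, and the PladB difference in the WT-FOXA1 line, 2.00 points without PladB replicate 1. The number of regions was 624 at a q-value of 1e-05 or below, of which 387 overlapped regions of the main rule, and 629 to 699 under the other settings of the peak lists. Leaving out libraries one at a time changed the counts and differences as follows, and each count grew by construction, since fewer libraries had to be met. The number of regions was 679 to 1029. Regions with both DMSO and no WX-02-23 peaks numbered 213 to 297 in the WT-FOXA1 line and 67 to 118 in the C258A-FOXA1 line. Regions without a PladB 100 nM peak numbered 137 to 184. The WX-02-23 difference was -47.4 to -40.8 points in the WT-FOXA1 line and -25.7 to -15.5 in the C258A-FOXA1 line. The line difference was -29.6 to -19.3, the joint difference -32.2 to -26.4, and that relative to mirror regions -27.3 to -19.2 (highest exact permutation p 0.0133). The Dox difference was 6.49 to 11.3, the PladB dose difference -22.97 to -17.1, and the PladB difference -14.3 to 2.00 in the WT-FOXA1 and -8.49 to -4.81 in the C258A-FOXA1 line.

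Replicate numbers did not pair the libraries: no same-numbered pair of parental or engineered libraries correlated above 0.1 in its deviations from group means, and 4 of 15 parental and 8 of 14 engineered libraries correlated best with their own number. With the replicate number as a block the differences had the same sizes (-45.0, -20.6, -29.6, -23.1, 8.89, -19.7, -6.17 and -6.65 points). The exact permutation p was 0.0123 for the joint difference and for that relative to mirror regions, and 0.25 for the PladB dose. It was 1 for PladB in the WT-FOXA1 line and 0.5 for the other differences, which have 2 pairs each. No call changed. Depth sets a floor of 5 to 8 summit reads, near which many of these regions lie.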
